A study of Mus musculus with 10 samples.

Results

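The transcripts of 8 membrane transporters that move drugs, conjugates and organic cations across cells were followed in the proximal small intestine of Zip14 (*Slc39a14*) knockout (KO) and wild-type (WT) mice. The genes are *Abcb1a*, *Abcb1b*, *Abcg2*, *Abcc2*, *Abcc3*, *Abcc4*, *Slc22a4* and *Slc22a5*, taken by name. They are 8 of the 35275 Ensembl gene IDs counted, and all 8 passed the filter on low counts, which kept 15610 genes for testing. Bulk RNA-seq was made from 5 WT and 5 KO mice, with 1 library for each mouse, and the deposited values are raw read counts for every gene. According to the study's methods, the KO mice lack *Zip14* in the whole body, the WT mice are of the same strain, and both come from matings of heterozygous mice, whereas the series title speaks of an enterocyte-specific deletion and the labels say only KO. No agent was given. The labels put all mice at 8 to 10 weeks of age, while the methods give a wider range and both sexes without saying which mouse was which. A level is given as CPM, the counts of a gene scaled to a common library size with TMM, a scaling of edgeR that corrects library sizes for composition, and a mean ± SD is over n = 5 mice.

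Enterocytes limit the uptake of drugs and dietary toxins by pumping them back into the gut lumen. The pumps of the ATP-binding cassette (ABC) family use ATP to do so: P-glycoprotein (*Abcb1a* and *Abcb1b* in rodents), the breast cancer resistance protein (*Abcg2*) and the conjugate pump Mrp2 (*Abcc2*) sit in the apical membrane facing the lumen, while Mrp3 (*Abcc3*) moves conjugates through the basolateral membrane towards the blood. Mrp4 (*Abcc4*) exports cyclic nucleotides, conjugates and some drugs. *Slc22a4* (Octn1) and *Slc22a5* (Octn2) work the other way and take up organic cations and zwitterions. Octn1 is known for ergothioneine, and Octn2 is the high-affinity carrier of carnitine, which cells need to move long-chain fatty acids into mitochondria.

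The libraries held between 16729787 and 20819678 counts in WT mice and between 17118742 and 19414828 in KO mice. The knockout gene *Slc39a14* fell from 260.0 ± 62.5 to 102 ± 32.8 CPM (log2 fold change -1.35, standard error (SE) 0.22, adjusted p = 0.00184), and all 5 KO libraries were below all WT libraries. The KO level was 0.393 of the WT level. Counts per gene do not show which part of the transcript the remaining reads came from, so this fall alone does not check the genotype labels, and the gut segment, described next, cannot be told apart from genotype in it. KO replicate 1 kept 159.9 CPM of it, against 78.4 to 93.6 in the other KO libraries, and values without this library are given for *Abcc2*, *Slc22a4* and *Slc22a5*. The labelled tissue was checked against marker genes. The summed level of 7 markers of the proximal small intestine was 8395 to 15144 CPM in WT libraries and 91.4 to 1338 CPM in KO libraries, and of the 6 tested *Fabp1*, *Apoa4* and *Gata4* were lower and 3 were not called (*Lct* was below WT in all 5 KO libraries, adjusted p = 0.0632 in edgeR, and *Slc40a1*, chosen like *Lct* after its values were seen, was at 20.5 in WT and 32.5 CPM in KO mice). The other marker, *Cyp8b1*, was at 0 counts in all 5 WT libraries. All 6 ileal markers were higher, with a sum of 219 to 301 CPM in WT and 3341 to 10593 CPM in KO libraries. *Fabp6*, the ileal bile acid binding protein, had 0.778 CPM in WT and 5506 CPM in KO mice. Smooth muscle markers were higher in KO mice for 8 of 8 genes (sums of 1054 to 1871 against 2796 to 8521 CPM), and epithelial markers for 6 of 8 genes (sums of 9420 to 11393 against 12386 to 17168 CPM). The 8 epithelial genes, also used below for the epithelial scaling, did not move alike, with log2 fold changes from -0.49 for *Vil1* (3081 to 2196 CPM, adjusted p = 0.105 in edgeR, 4 of 5 KO libraries below all WT libraries) to 1.26 for *Krt18* (adjusted p = 0.00205 in edgeR). Markers of endothelium (1 higher and 2 lower of 8), macrophages (1 lower of 6), T cells (0 of 6), B and plasma cells (0 of 6) and exocrine pancreas (0 of 2 tested) gave few or no calls. The B and plasma cell list still set libraries apart, with a mean log2 CPM of 5.00 in WT replicate 5 and 5.73, 5.72 and 5.60 in KO replicates 2, 3 and 4, against 2.80 to 3.62 in the other 6 libraries, and its median log2 fold change was 1.72. The summed level of these 6 markers went the other way, at 446 to 862 CPM in those 4 libraries and 899.9 to 1429 CPM in the other 6, so the libraries called high in these markers are high in the mean of the logs and not in the sum. KO replicate 2 alone had a high sum of 5 colon markers (1453 CPM, against 108 to 178 CPM in the other KO and 157 to 231 CPM in the WT libraries). At an unadjusted p under 0.05, 4 T cell, 2 B and plasma cell and 1 pancreas genes passed in edgeR, and DESeq2 called 2, 1 and 0. With the epithelial scaling edgeR called 5 of 8 endothelial, 4 of 6 macrophage, 4 of 6 T cell and 1 of 6 B and plasma cell markers lower, and 0 of these as higher. That scaling called 57.9% of all 15610 genes tested, 8378 as lower and 654 as higher, and these counts are to be read beside that share. The segment of gut that a library represents and the genotype cannot be told apart with these samples, and the part of either, or of muscle, in the differences below was not tested. In bulk tissue, fewer cells of a type and less RNA per cell cannot be told apart either.

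Several of these genes have close relatives whose reads can be confused, so their sequences are shown first. *Abcb1a* (ENSMUSG00000040584) spans bases 8660077 to 8748575 of chromosome 5, plus strand (GRCm38), and *Abcb1b* (ENSMUSG00000028970) follows on the same strand from 8798147 to 8866315, after a gap of 49571 bases. Their coding sequences in GENCODE M21 were identical at 87.98% of aligned bases, with a longest identical run of 338 bases, and 17.6% of all 50-base windows of the *Abcb1a* transcripts occurred in the transcripts of another gene, mostly *Abcb1b*. *Slc22a5* (ENSMUSG00000018900, chromosome 11, minus strand, 53864542 to 53891660) is nearest in sequence to *Slc22a21*, a further carnitine carrier that lies between it and *Slc22a4*. That pair was identical at 90.37% of aligned coding bases, with a longest identical run of 157 bases, and 26.3% of the 50-base windows of *Slc22a5* occurred in another gene. *Slc22a4* (ENSMUSG00000020334, chromosome 11, minus strand, 53983123 to 54028090) shared 2.64% of its windows, and at most 0.663% were shared for *Abcg2*, *Abcc2*, *Abcc3* and *Abcc4*. *Abcb1a* and *Abcb1b* also overlap the exons of an antisense gene each, and whether the counting used strand is not given in the sources used here. A 60-base coding stretch, where the pair differs most, is printed for each pair with the differing bases in capitals, to show where a read can be assigned.
Abcb1a, coding bases 1913 to 1972: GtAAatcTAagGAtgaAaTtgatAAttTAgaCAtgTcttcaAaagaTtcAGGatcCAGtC
Abcb1b, coding bases 1922 to 1981: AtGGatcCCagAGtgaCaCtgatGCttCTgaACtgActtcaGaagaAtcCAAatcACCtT
Slc22a5, coding bases 1577 to 1636: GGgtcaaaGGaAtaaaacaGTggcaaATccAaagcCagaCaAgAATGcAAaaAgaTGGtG
Slc22a21, coding bases 1586 to 1645: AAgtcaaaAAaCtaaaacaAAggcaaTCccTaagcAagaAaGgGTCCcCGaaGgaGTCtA

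The first pair differed at 25 and the second at 24 of the 60 bases. When the counts of *Abcb1a* and *Abcb1b* were summed as 1 gene, edgeR gave a log2 fold change of 0.02 (SE 0.28, adjusted p = 0.956). For the sum of *Slc22a5* and *Slc22a21* it was 0.19 (SE 0.12, 95% confidence interval -0.07 to 0.44, adjusted p = 0.235 in edgeR).

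Across the 8 transporters, 1 gene rose in KO mice (*Abcg2*), 2 fell (*Abcc2* and *Slc22a4*) and 5 did not pass the test. Of all 15610 genes tested, 29.9% were called, 16.0% as higher and 13.9% as lower, so 3 of 8 calls is near the background of this comparison. The median log2 fold change of the 8 genes was -0.10, against 0.03 over all genes tested. No library of either group reached into the range of the other for 2 of the 8 genes (*Abcg2* and *Abcc2*), and for 21.1% of all genes tested. The tests are edgeR's quasi-likelihood test with Benjamini-Hochberg adjustment over all genes tested and a threshold of 0.05. Of the calls over all genes, 53.5% were higher with TMM, 69.2% with library size alone (which moved the median of all genes by 0.12) and 7.24% with a scaling to 8 epithelial marker genes (which moved it by -0.53). The epithelial scaling called 57.9% of all genes tested, 654 as higher and 8378 as lower. Of the 8 transporters it called 0 as higher and 4 as lower. The transporters whose direction or call turns with these scalings are named with their values. In 4 libraries (WT replicate 5 and KO replicates 2, 3 and 4) B and plasma cell markers were high, and without them, with 2 KO libraries left, edgeR called 7.05% of all genes, *Abcg2* as higher and 0 of the 8 as lower.

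**Figure D1:**
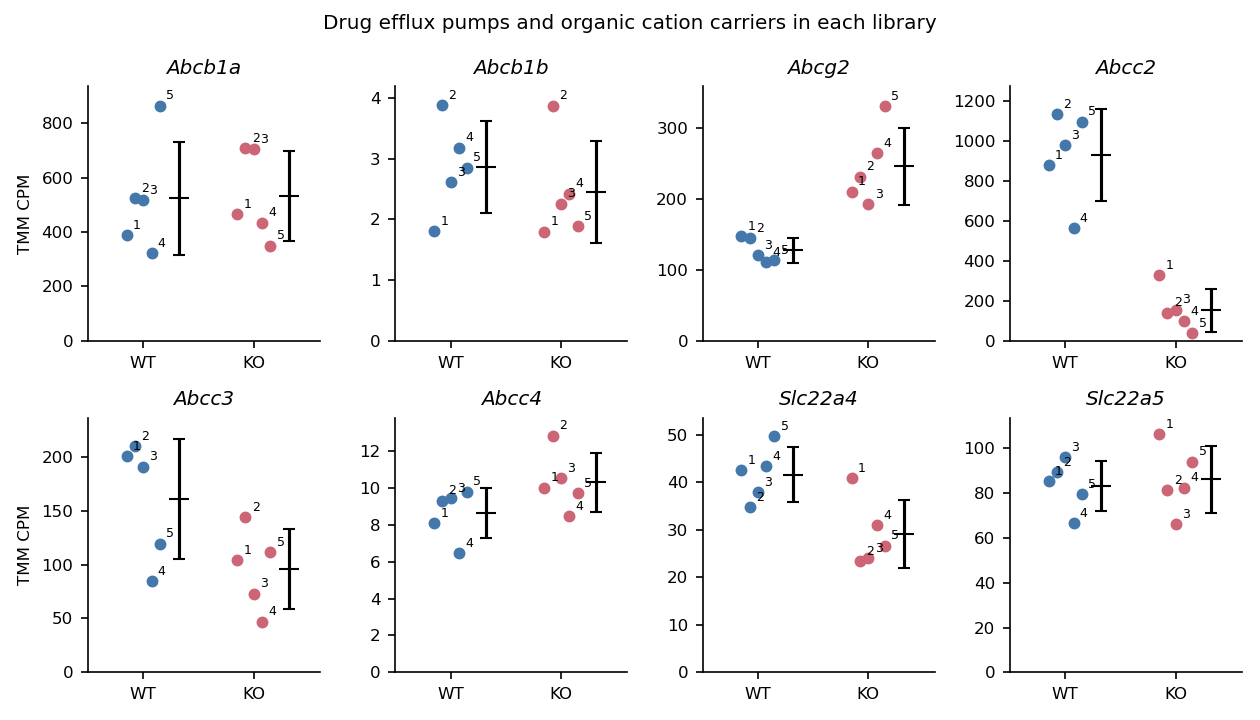
TMM CPM (y axis, linear from 0) of the 8 transporter genes in each of the 5 WT (blue) and 5 KO (red) libraries, with replicate numbers beside the points and the mean ± SD as bars. All KO libraries lie above all WT libraries for *Abcg2* and below them for *Abcc2*, and in the other 6 panels the groups overlap.

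*Abcc2* (ENSMUSG00000025194, chromosome 19, plus strand, 43782192 to 43840740) showed the largest difference of the set. Mrp2 exports glutathione, glucuronide and sulfate conjugates into the lumen and, in the rodent gut, is most abundant in its proximal part. In WT replicates 1 to 5 it had 877, 1132, 979, 563 and 1096 CPM. In KO replicates 1 to 5 it had 329, 141, 157, 100.02 and 39.7 CPM. All KO libraries were below all WT libraries, and the KO libraries spread over a wider ratio than the WT libraries. The mean fell from 929 ± 228 to 153 ± 108 CPM, which is 6.06-fold lower (log2 fold change -2.60, SE 0.46, adjusted p = 0.00276 in edgeR). Without KO replicate 1 the log2 fold change was -3.09 (adjusted p = 0.000391 in edgeR), and it was called under all 3 other scalings. Without the 4 libraries high in B and plasma cell markers it was -2.26 and not called (adjusted p = 0.111 in edgeR).

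*Abcg2* (ENSMUSG00000029802, chromosome 6, plus strand, 58584523 to 58695676) went the other way. Its protein returns urate, riboflavin, plant toxins and sulfate conjugates to the lumen. The WT libraries had 147, 145, 121, 110.4 and 114 CPM in order of replicate number. The KO libraries had 210.1, 231, 193, 264 and 331 CPM, each above every WT library. The mean rose 1.93-fold, from 128 ± 17.4 to 246 ± 54.5 CPM (log2 fold change 0.95, SE 0.16, adjusted p = 0.00192 in edgeR). Scaled to the epithelial markers, the difference was 0.39 (95% confidence interval 0.03 to 0.75, adjusted p = 0.0585 in edgeR), the groups overlapped, and the call was lost.

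The P-glycoprotein genes did not pass the test. *Abcb1a* had 389, 525, 517, 321 and 864 CPM in WT libraries, and 466, 709, 703, 434 and 350.1 CPM in KO libraries. The groups overlapped over most of their range. Means were 523 ± 209 and 533 ± 164 CPM, and the 95% confidence interval of the log2 fold change (0.03, adjusted p = 0.954 in edgeR) ran from -0.59 to 0.64. Its sign turned with the epithelial scaling (-0.50, adjusted p = 0.167) and without WT replicate 1 or 4 or KO replicate 2 or 3 (-0.12 to -0.07). WT replicate 5 and KO replicates 2 and 3, the libraries with the most *Abcb1a*, were among the 4 high in B and plasma cell markers, whereas KO replicate 4, also high in them, was within the range of the rest. Without those 4 libraries the value was -0.10 (adjusted p = 0.815 in edgeR), and the part of these cells in it was not tested. *Abcb1b*, the second rodent copy, had only 32 to 74 counts in a library. It had 1.81, 3.89, 2.62, 3.18 and 2.85 CPM in WT libraries and 1.80, 3.88, 2.26, 2.43 and 1.89 CPM in KO libraries, and the groups overlapped. Its log2 fold change was -0.22 (95% confidence interval -0.81 to 0.36, adjusted p = 0.545 in edgeR), and with 1 library left out at a time it ran from -0.46 without KO replicate 2 to -0.10 without WT replicate 2. It was -0.75 with the epithelial scaling (95% confidence interval -1.42 to -0.08, adjusted p = 0.0521 in edgeR) and -0.64 without the 4 libraries high in B and plasma cell markers (adjusted p = 0.258 in edgeR).

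The basolateral pump gene *Abcc3* (ENSMUSG00000020865, chromosome 11, minus strand, 94343295 to 94392997) had 200.3, 209.6, 191, 84.7 and 119 CPM in WT libraries. In KO libraries it had 104, 144, 72.9, 47.0 and 111 CPM. WT replicates 4 and 5 were inside the range of the KO libraries, and 2 of 5 KO libraries were below all WT libraries. Means were 161 ± 55.6 and 95.9 ± 37.3 CPM, and the difference was -0.75 on the log2 scale (SE 0.32, adjusted p = 0.0932 in edgeR), which did not pass the threshold. It passed without WT replicate 4 (-0.93, adjusted p = 0.0415 in edgeR) and with the epithelial scaling (-1.33, adjusted p = 0.00510 in edgeR).

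*Abcc4* (ENSMUSG00000032849, chromosome 14, minus strand, 118482692 to 118706219) was low in both groups. It had 8.08, 9.30, 9.44, 6.47 and 9.79 CPM in WT libraries and 10.0, 12.8, 10.5, 8.47 and 9.69 CPM in KO libraries. Of the KO libraries, 3 of 5 were above all WT libraries and the other two were inside their range. The log2 fold change was 0.26 (95% confidence interval -0.08 to 0.60, adjusted p = 0.221 in edgeR), and it was -0.29 with the epithelial scaling (adjusted p = 0.230). Leaving out 1 library at a time gave 0.15 (without WT replicate 4) to 0.32 (without KO replicate 4), with 0.16 without KO replicate 2.

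**Figure D2:**
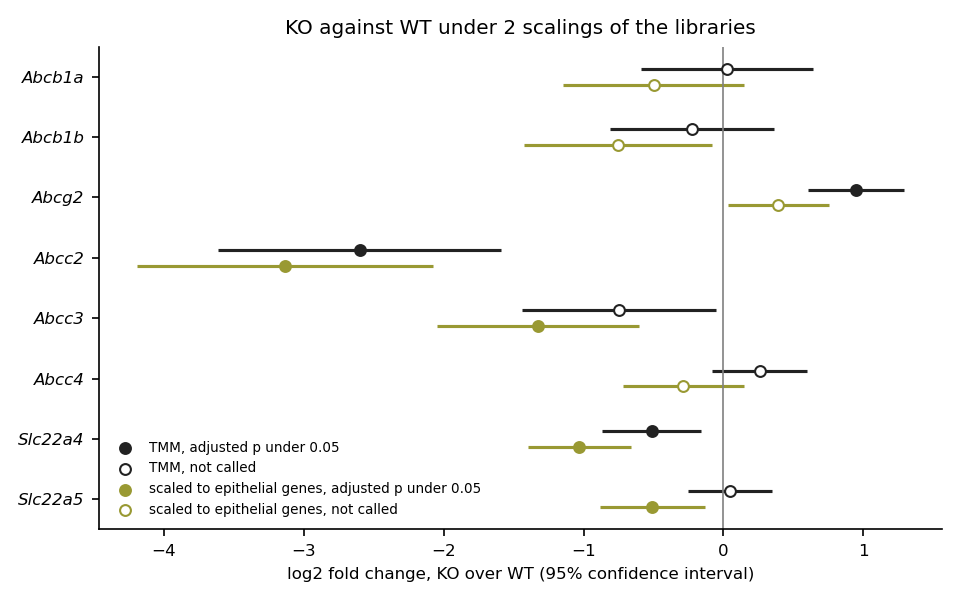
Log2 fold change of KO over WT (x axis) of the 8 genes with its 95% confidence interval (lines), with TMM (black) and with a scaling to 8 epithelial marker genes (olive), where filled points passed an adjusted p of 0.05. *Abcc2* and *Slc22a4* are called with both scalings, *Abcg2* with TMM alone, and the values of *Abcb1a*, *Abcc4* and *Slc22a5* change sign between them.

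Of the 2 organic cation carriers, *Slc22a4* was lower in KO mice. It had 42.5, 34.7, 37.9, 43.3 and 49.7 CPM in WT libraries. It had 40.8, 23.5, 24.0, 31.0 and 26.7 CPM in KO libraries. KO replicate 1 was within the WT range, and 4 of 5 KO libraries were below all WT libraries. The mean fell from 41.6 ± 5.72 to 29.2 ± 7.15 CPM, or 1.43-fold (log2 fold change -0.51, SE 0.16, adjusted p = 0.0348 in edgeR). The call was lost without WT replicate 1, 3, 4 or 5 and without KO replicate 2, 3 or 5, with log2 fold changes of -0.51, -0.55, -0.51, -0.44, -0.45, -0.46 and -0.48 in that order. With library size alone it was also lost (-0.40, adjusted p = 0.0651 in edgeR), and without KO replicate 1 it held (-0.66, adjusted p = 0.00393 in edgeR). Without the 4 libraries high in B and plasma cell markers the value was -0.23 (adjusted p = 0.466 in edgeR).

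*Slc22a5* had 85.2, 89.4, 95.9, 66.6 and 79.4 CPM in WT libraries. It had 106, 81.4, 66.2, 82.4 and 94.0 CPM in KO libraries, which spanned the WT range. Means were 83.3 ± 11.1 and 86.1 ± 15.03 CPM, and the log2 fold change was 0.05 (95% confidence interval -0.25 to 0.34, adjusted p = 0.815 in edgeR). Its sign turned without KO replicate 1 (-0.042, adjusted p = 0.819 in edgeR) or WT replicate 4 (-0.039, adjusted p = 0.846 in edgeR). It turned to -0.51 with the epithelial scaling and was then called (adjusted p = 0.0240 in edgeR). Its near relative *Slc22a21*, in contrast, was higher with 12.5 to 15.3 CPM in WT and 17.9 to 34.2 CPM in KO libraries (log2 fold change 0.82, SE 0.17, adjusted p = 0.00539 in edgeR), although it lost that call with the epithelial scaling (0.29, adjusted p = 0.197).

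Ratios of 2 genes within a library do not depend on the scaling, and 3 such ratios were compared with a 2-sided exact permutation test, with adjustment over the 3. The log2 ratio of *Slc22a4* to *Slc22a5* was -1.001 ± 0.35 in WT and -1.57 ± 0.22 in KO mice (n = 5 each, difference -0.57, exact p = 0.00794, adjusted p = 0.0119). *Slc22a4* made up 27.96% to 39.4% of the counts of the pair in WT libraries and 22.1% to 27.8% in KO libraries, so that all 5 KO libraries were below all WT libraries. The gap between the nearest libraries of the 2 groups was small, and 2 WT libraries (replicates 2 and 3) lay next to the KO libraries. The log2 ratio of *Abcc2*, the apical conjugate pump, to *Abcc3*, its basolateral counterpart, was 2.57 ± 0.41 in WT and 0.47 ± 1.25 in KO mice (n = 5 each, difference -2.10, exact p = 0.00794, adjusted p = 0.0119). *Abcc2* made up 81.4% to 90.2% of the counts of that pair in WT libraries and 26.3% to 76.0% in KO libraries. In KO replicate 5 *Abcc3* had clearly more counts than *Abcc2* (*Abcc2* share 26.3%), and in KO replicate 2 the counts were nearly equal (49.5%). No WT library showed either. The log2 ratio of *Abcb1a* to *Abcb1b* was 7.45 ± 0.61 in WT and 7.75 ± 0.36 in KO mice (n = 5 each, difference 0.30, exact p = 0.389, adjusted p = 0.389; 0.093 without WT replicate 4 and 0.49 without WT replicate 5), and *Abcb1a* gave at least 99.0% of the counts of the pair in every library. A p of 0.00794 is the smallest that 5 libraries against 5 can give.

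**Figure D3:**
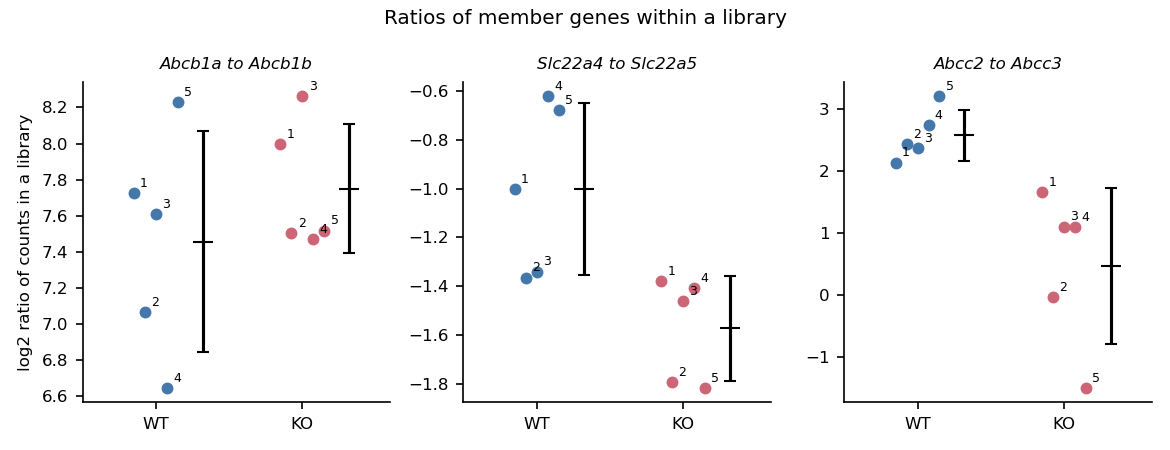
Log2 ratio of the counts of 2 genes in the same library (y axis, a separate range in each panel) for 5 WT (blue) and 5 KO (red) libraries, numbered by replicate, with mean ± SD as bars. The KO libraries lie below all WT libraries for *Slc22a4* to *Slc22a5* and for *Abcc2* to *Abcc3*, and the groups overlap for *Abcb1a* to *Abcb1b*.

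Levels of different genes were set side by side per kilobase of exon. How reads that fit more than 1 gene were counted is not known. Of the 50-base windows, 17.6% of *Abcb1a*, 11.6% of *Abcb1b* and 26.3% of *Slc22a5* were shared with other genes, which may shift their levels. In WT mice *Abcc2* (109 ± 26.7 CPM per kb) and *Abcb1a* (95.5 ± 38.2) came first, and their libraries overlapped. *Abcc3* (28.2 ± 9.76) and *Slc22a5* (27.1 ± 3.62) followed and did not differ beyond their spread, and neither did *Slc22a4* (16.3 ± 2.24) and *Abcg2* (15.6 ± 2.14). *Abcc4* (1.35 ± 0.213) and *Abcb1b* (0.359 ± 0.0950) were the lowest, each apart from its neighbours. In KO mice *Abcb1a* (97.2 ± 29.9 CPM per kb) stood alone at the top. *Abcg2* (30.1 ± 6.68), *Slc22a5* (28.03 ± 4.89), *Abcc2* (18.0 ± 12.7), *Abcc3* (16.8 ± 6.54) and *Slc22a4* (11.4 ± 2.80) came next, each overlapping the next in order, ahead of *Abcc4* (1.61 ± 0.251) and *Abcb1b* (0.307 ± 0.105). The apical pump with the highest mean level was thus *Abcc2* in WT mice and *Abcb1a* in KO mice.

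**Figure D4:**
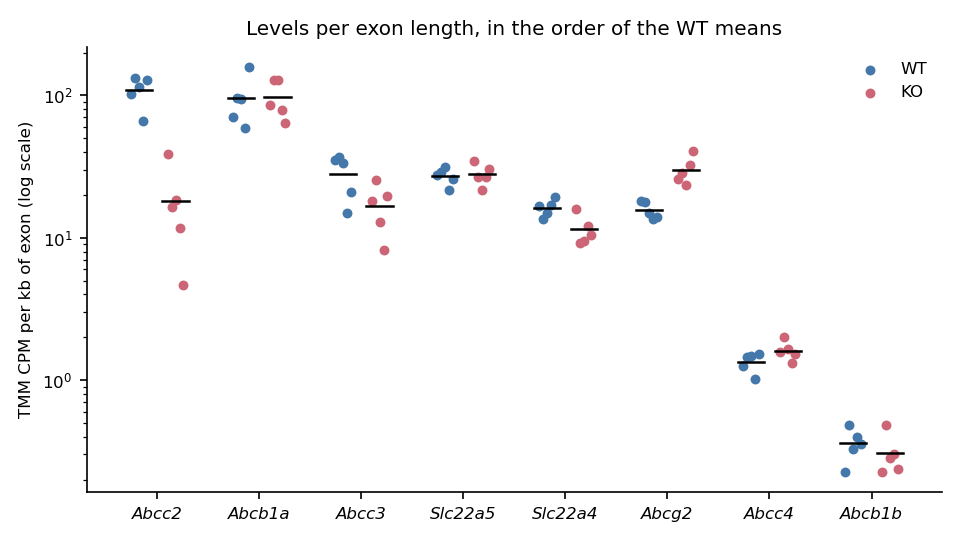
TMM CPM per kilobase of exon (y axis, log scale) of the 8 genes in 5 WT (blue) and 5 KO (red) libraries, ordered by the WT mean, with black lines at the means. *Abcc2* drops from 109 in WT to 18.0 in KO mice and falls among the middle group, while *Abcb1a* has means of 95.5 and 97.2.

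For each gene, the tested genes with the most similar pattern of log2 CPM were listed by Pearson's r over the 10 libraries, as a description that includes the difference between the groups. *Abcc2* was most like *Atp7b*, a copper-exporting ATPase (r = 0.989), and *Cda*, cytidine deaminase (r = 0.984). *Abcg2* was most like *Slc30a1*, the zinc exporter ZnT1 (r = 0.973), and *Cldn2*, a claudin of leaky tight junctions (r = 0.972). *Abcb1a*, which did not pass the test between the groups, was most like *Slamf6*, a receptor of lymphocytes (r = 0.937), and *Dock2*, an exchange factor of leukocytes (r = 0.885). *Slc22a4* was most like *A130051J06Rik* (r = 0.973) and *Oat*, ornithine aminotransferase (r = 0.970). For *Abcc3* the nearest genes were *Fem1a* (r = 0.965) and *Trim12c* (r = 0.960), and for *Abcc4* *Ccdc122* (r = 0.928) and *Nfe2l3* (r = 0.923). *Abcb1b* (*Slc26a1* and *AI467606*, r = 0.889 and 0.886) and *Slc22a5* (*Ubxn8* and *Mocs3*, r = 0.863 and 0.861) had the lowest r to their nearest gene. The points share their library and its scaling.

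Promoter sequence was read from RefSeq (GRCm38.p6) as the 250 bases before an annotated start, and 7 of the 8 genes had an entry. The windows of *Abcb1b*, *Abcg2*, *Abcc4*, *Slc22a4* and *Slc22a5* include a start within 43 bases of the GENCODE start, that of *Abcc2* lies 116 bases further on, and that of *Abcb1a* 92986 bases away. Printed here are the genes that were called and *Slc22a5* beside *Slc22a4*, up to the earlier of both starts where they lie within the window, each on its own strand.
Abcc2, chr19:43782058-43782191, plus strand: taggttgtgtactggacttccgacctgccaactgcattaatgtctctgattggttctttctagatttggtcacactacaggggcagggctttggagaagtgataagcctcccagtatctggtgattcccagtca
Abcg2, first of 3 starts, chr6:58584283-58584522, plus strand: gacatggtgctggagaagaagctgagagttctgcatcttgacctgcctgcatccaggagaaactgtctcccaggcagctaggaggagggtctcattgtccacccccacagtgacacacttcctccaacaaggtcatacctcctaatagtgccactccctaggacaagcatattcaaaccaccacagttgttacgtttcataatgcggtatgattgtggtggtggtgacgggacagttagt
Slc22a4, chr11:54028105-54028354, minus strand: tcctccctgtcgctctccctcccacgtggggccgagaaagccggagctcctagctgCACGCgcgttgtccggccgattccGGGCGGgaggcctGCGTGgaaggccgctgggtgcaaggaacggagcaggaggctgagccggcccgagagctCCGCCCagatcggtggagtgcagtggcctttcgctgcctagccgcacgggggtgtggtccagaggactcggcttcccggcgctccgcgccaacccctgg
Slc22a5, chr11:53891704-53891953, minus strand: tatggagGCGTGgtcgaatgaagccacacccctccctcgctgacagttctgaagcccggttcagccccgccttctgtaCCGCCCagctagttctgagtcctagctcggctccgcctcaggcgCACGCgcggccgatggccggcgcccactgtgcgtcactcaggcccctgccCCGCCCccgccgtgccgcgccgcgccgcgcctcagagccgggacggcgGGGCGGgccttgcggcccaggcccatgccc

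Capitals mark matches, on either strand, to 8 short motifs. These were AGATAA, bound by factors of the Gata family, CAAAGTCCA and its shorter form CAAAGT, both read by Hnf4, GTTAAT, known for Hnf1 factors, TTTATG, known for the homeobox factor Cdx2, GCGTG, the core read by the aryl hydrocarbon receptor, TGACNNNGC, the core of the antioxidant response, and GGGCGG, the box bound by Sp1 factors. The windows of *Slc22a4* and *Slc22a5* each held GCGTG and also the Sp1 box GGGCGG, which occur in 28.16% and 32.74% of all 32851 windows of 250 bases. Both windows are rich in G and C (71.2% and 73.6%, against a median of 52.4% over all windows) and hold 26 and 30 CpG pairs. The *Abcc2* window was 45.6% G and C with 1 CpG pair, and held CAAAGT 79 bases and TGACNNNGC 98 bases before the RefSeq start, downstream of the stretch printed. CAAAGT occurs in 12.55% and TGACNNNGC in 10.16% of all windows, and CAAAGT also occurred 3 times in the window of *Abcb1a*. Of the *Abcc4* windows, the one at the annotated start held the short Hnf4 form, the aryl hydrocarbon receptor core, the antioxidant response core and the Sp1 box, the other held the antioxidant response core, and of these motifs the *Abcb1b* window held the Sp1 box alone. The first *Abcg2* window held none of the motifs, and its other two windows held GGGCGG only. The shares for the other motifs were 9.99% (AGATAA), 0.38% (CAAAGTCCA), 6.43% (GTTAAT) and 10.76% (TTTATG), with no match in a window of these genes. The counts per gene do not tell which start was used.

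Related genes were counted in 5 lists. Over all genes tested, TMM gave calls for 29.9% (16.0% higher, 13.9% lower). The epithelial scaling gave calls for 57.9%, with 8378 of 15610 genes lower and 654 higher. Of 4 tested ABC efflux pumps outside the set, *Abcc1* (Mrp1, a basolateral glutathione conjugate pump) rose (log2 fold change 0.42, adjusted p = 0.0210 in edgeR) and *Abcc10* fell (-0.34, adjusted p = 0.0359), with a median of -0.24 for the list. *Abcc1* lost its call with the epithelial scaling, where its value was -0.10 (adjusted p = 0.620), and *Abcc10* with library size alone (-0.23, adjusted p = 0.148). The epithelial scaling called 0 of the 4 higher and 3 lower, with calls gained by *Abcc5* (-0.66, adjusted p = 0.0273 in edgeR) and *Abcc6* (-1.41, adjusted p = 0.0279 in edgeR). Of 25 other carriers of organic cations and anions, 16 were tested, 9 rose and 3 fell, with a median of 0.39, and this split became 3 higher and 6 lower with the epithelial scaling. *Slc51a*, a subunit of the basolateral bile acid exporter and one of the ileal markers, rose most (190 ± 14.2 to 814 ± 219 CPM, log2 fold change 2.10, adjusted p = 8.82e-05). Those that fell included *Slc47a1* (Mate1, a proton-coupled exporter of organic cations, 62.8 ± 18.9 to 22.6 ± 3.28 CPM, log2 fold change -1.47, adjusted p = 0.000681) and *Slco2b1* (-0.51, adjusted p = 0.0221), the latter named after its values were seen.

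Of 12 transcription factors and partners known to act on drug transporter genes, 2 rose, 5 fell and 5 did not pass, with a median log2 fold change of -0.23. *Nr1i3*, the constitutive androstane receptor, had 43.9 to 76.2 CPM in WT and 1.31 to 8.21 CPM in KO libraries (log2 fold change -4.01, SE 0.48, adjusted p = 0.000419 in edgeR). *Nfe2l2*, the antioxidant response factor Nrf2, had 287 to 410.2 CPM in WT and 93.3 to 195 CPM in KO libraries (log2 fold change -1.59, adjusted p = 0.000695 in edgeR). *Nr1h4*, the bile acid receptor Fxr, rose from 28.5 ± 1.59 to 116 ± 34.9 CPM (log2 fold change 2.02, adjusted p = 0.000136), and *Cdx2*, an intestinal homeobox factor, rose by 0.78 (adjusted p = 0.00273). The other genes that fell, named after their values were seen, were *Ppara* (-1.12, adjusted p = 0.0165), *Ahr* (-0.85, adjusted p = 0.0326) and *Nr1i2*, the pregnane X receptor (-0.43, adjusted p = 0.0195). *Hnf4a*, the most abundant gene of the list, had a value of 0.27 (adjusted p = 0.234). With library size alone *Ahr* (-0.72, adjusted p = 0.0510) and *Nr1i2* (-0.31, adjusted p = 0.0506) lost their calls, which left 3 lower. With the epithelial scaling 1 of the 12 was called higher and 9 lower, and *Cdx2* was no longer called (0.24, adjusted p = 0.171). That scaling called 57.9% of all genes tested, 8378 of 15610 as lower.

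Of 6 scaffold genes that tether transporters to the membrane, edgeR called 0, while 3 had an unadjusted p under 0.05 and DESeq2 called 1 of them lower (*Slc9a3r1*, adjusted p = 0.0446). *Ezr*, *Slc9a3r1* and *Pdzk1* had log2 fold changes of 0.06, -0.38 and -0.40, and the epithelial scaling called 4 of the 6 lower. Library size alone called 1 higher (*Msn*, 0.57, adjusted p = 0.0358 in edgeR) and 0 lower. Of 8 tested genes of carnitine synthesis and use, 1 rose and 4 fell, with a median of -0.69. With the epithelial scaling 0 were called higher and 6 lower, with a median of -1.27, and *Cpt1a* (-0.52, adjusted p = 0.0177 in edgeR) and *Aldh9a1* (-0.81, adjusted p = 0.00145 in edgeR) gained calls. Over all genes tested that scaling called 57.9%, 8378 of 15610 as lower, with a median of -0.51. *Slc25a20*, the mitochondrial carnitine carrier, was higher (0.59, adjusted p = 0.0264), but not with the epithelial scaling (0.02, adjusted p = 0.948). The acyltransferase genes *Crot* (176 ± 32.3 to 78.5 ± 22.6 CPM, log2 fold change -1.16, adjusted p = 0.00209), *Crat* (-1.10, adjusted p = 0.00208) and *Cpt2* (-0.49, adjusted p = 0.0437) were lower, although *Cpt2* lost its call with library size alone (-0.37, adjusted p = 0.0816). *Bbox1*, which makes the last step of carnitine synthesis, had 2.19 to 55.7 CPM in WT libraries and 0.169 to 0.628 CPM in KO libraries (adjusted p = 0.00190). *Cpt1a* and *Aldh9a1* had values of 0.02 (adjusted p = 0.927) and -0.28 (adjusted p = 0.187). All adjusted p-values in the lists are from the same edgeR test unless DESeq2 is named.

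**Figure D5:**
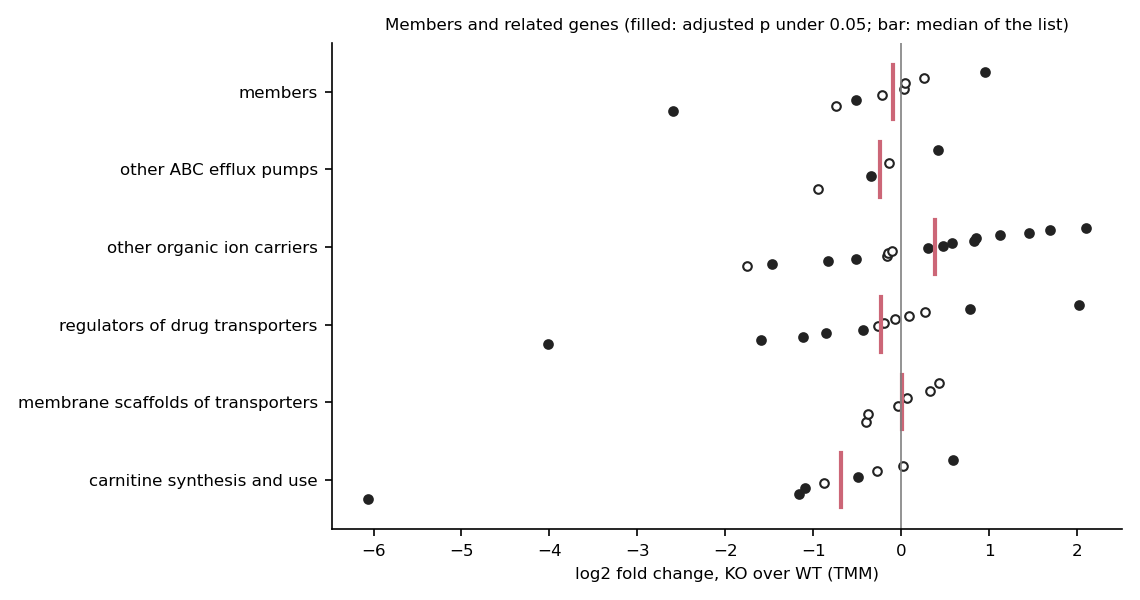
Log2 fold change of KO over WT with TMM (x axis) of the 8 transporters (members) and of the tested genes in 5 related lists, where filled points passed an adjusted p of 0.05 and red bars mark the median of a list. The medians run from -0.69 for carnitine synthesis and use to 0.39 for other organic ion carriers, and no point of the scaffold list is filled.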

How the data were processed

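The authors deposited 10 tables of raw counts per Ensembl gene ID, 1 for each mouse (5 WT, 5 KO), without normalization. Per the labels, RNA was extracted with TRI Reagent from frozen segments treated with RNAlater, whereas the study's methods give flash-freezing, TRI Reagent and RNeasy columns. Per the labels, libraries were made with a SMARTer mRNA-Seq kit. The submitters' processing notes name FastQC 0.11.9, Trimmomatic, HISAT2 2.0.4, SAMtools 1.3.1 and DESeq2 1.14.1 with GRCm38 and mm10. For the read counter, the annotation release and strand, nothing is given in the sources used here.

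Names, exon lengths and transcripts were taken from GENCODE M21, which gave a symbol for 34490 of 35275 IDs. Counts were tested in R 4.3.3 with edgeR 4.0.16 (TMM, filterByExpr with a minimum count of 10 and a minimum total of 15, quasi-likelihood test, Benjamini-Hochberg adjustment, threshold 0.05), and checked on simulated data. DESeq2 1.42.0 was an alternative. Ratios had 0.5 added to each count, and log2 CPM for pattern similarity a prior count of 2. The 8 genes and all lists were chosen with earlier results of these data known. From the lists, the called genes with the highest and lowest fold change and up to 3 abundant genes are named, others after their values were seen, and some genes of the lists are not reported here. Protein sequences were not used here, so relatives were compared by coding bases. Precision is set by 5 mice a group.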

Additional observations from a re-analysis of the deposited data

Results flagged for a closer look

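The CPM values of the 8 transporters, the 3 ratios and *Slc39a14* were searched for a library far from the others of its group (24 groups of 5 libraries), and 1 was found. *Slc39a14* was at 159.9 CPM in KO replicate 1, while the other 4 KO libraries had 78.4 to 93.6 CPM, and the gap was 0.813 of the range of the group (critical value 0.71). Chance alone marks about 1 in 20 such groups.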

How the results depend on the processing

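Of 228 alternative values for 13 results, 192 kept their direction and their side of the threshold (counts of genes within 1.5 times). Fold changes and ratios kept their direction in all alternatives run, except *Abcb1a*, *Abcc4* and *Slc22a5*. With library size only, *Slc22a4* was at -0.40 (adjusted p = 0.0651) and 1 gene was called lower. Scaled to epithelial genes, *Abcb1a* was at -0.50, *Abcc4* at -0.29 and *Slc22a5* at -0.51 (all with the sign turned), *Abcg2* at 0.39 (call lost) and *Abcc3* at -1.33 (call gained), with 0 genes called higher and 4 lower. This scaling assumes equal epithelial RNA in all libraries. Over all 15610 genes tested it called 57.9%, with 654 higher and 8378 lower, and the 4 lower calls are to be read beside that share. Leaving out 1 library at a time gave -0.12 to 0.28 for *Abcb1a*, -0.042 to 0.12 for *Slc22a5*, -0.95 to -0.57 for *Abcc3* and -0.66 to -0.44 for *Slc22a4*, with 1 to 2 genes called lower. Same-numbered WT and KO libraries did not deviate together as a set (r = 0.016, 0.0025, -0.091, 0.18 and -0.17). Pairs with unlike numbers ran from -0.21 to 0.19. Other differences between libraries also enter these values, so the check cannot tell whether a number stands for something shared. Leaving out the 4 libraries high in B and plasma cell markers, chosen after seeing the data, gave -0.10 for *Abcb1a*, -2.26 for *Abcc2* and -0.23 for *Slc22a4* (both calls lost) and 0 genes lower, with 2 KO libraries left. With the replicate block, *Abcc3* was at -0.76 (adjusted p = 0.0233, call gained), 3 genes were called lower and the calls over all genes went from 2492 higher and 2169 lower to 1950 and 1898. The sign-flip test of the block gave p = 0.0625 (exact, the smallest that 5 pairs allow) for the ratios of *Slc22a4* to *Slc22a5* (-0.57) and *Abcc2* to *Abcc3* (-2.10). Summing relatives, also chosen after seeing the data, changed no call. The causes of these changes were not tested. Depth limits *Abcb1b* most, with 32 to 74 counts in a library.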

Other observations

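*Slc6a14*, an amino acid carrier that also takes up carnitine, was removed by the filter on low counts and was singled out after its values were seen. It had 0, 0, 0, 3 and 3 counts in WT replicates 1 to 5, and 3, 3468, 875, 256 and 466 counts in KO replicates 1 to 5. KO replicate 1, the library with the most *Slc39a14* among the KO libraries, was at the level of the WT libraries, and the other 4 KO libraries were at 12.2 to 182 CPM. KO replicate 2, with 182 CPM, was also the library with the high sum of colon markers. Since the gene was chosen for these values, no test is given.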
